A study of Mus musculus with 4 samples.

Results

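Tbx5, Tbx4, Pitx1 and Isl1 are the transcription factor genes by which forelimb and hindlimb are usually told apart in the vertebrate embryo. They were taken by name, 4 of the 22367 protein-coding genes of the GENCODE M1 annotation, and followed in ATAC-seq data of mouse limb cells. ATAC-seq marks open chromatin by the places where a transposase can cut the DNA, and the data used here are lists of 1-bp summits, the points of strongest signal in called peaks. The embryos were of stage E11.5 and of the strain labelled c57bl6.J X 129S6.sv. One genotype was labelled mutant with a stop cassette insertion, in a study of the long non-coding RNA Maenli and of engrailed-1, and the other was wild type, with 2 libraries each. Forelimb and hindlimb cells were together in every library, in proportions that the labels do not give, after trypsin dissociation and fixation in paraformaldehyde. The labels do not say how many embryos a library holds, or where the cassette sits.

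Tbx5 is a T-box factor made in the forelimb field, where it is needed for the limb bud to form and for Fgf10 to be switched on. Tbx4, its close relative, is made in the hindlimb, and Pitx1 is a paired-type homeodomain factor that gives the hindlimb its character and acts upstream of Tbx4. Isl1 is a LIM homeodomain factor that acts early in the hindlimb field and is also known from heart and motor neuron development. Because each library mixes both limbs, an open site used in only 1 limb pair would be diluted by the cells of the other. A smaller share of cells with an open site and less opening per cell cannot be told apart in such bulk samples.

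The lists held 79083 and 107827 summits for stop cassette replicates 1 and 2, and 51701 and 68471 for wild-type replicates 1 and 2. Read depth is unknown. Each summit carries the authors' score, a −log10 value, which was turned into its percentile rank among the summits of the same list, where 100 is the highest. Summits were counted at a gene's start, within 1 kb of an annotated one, and in its window, the gene body with 200 kb on each side. Overlapping summits of the 4 lists, each extended by 250 bp on both sides, were merged into regions, and the windows of the 4 genes held 65 of the 74669 regions of the series.

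The sequences on which the descriptions below turn are those at the strongest distal summits, more than 1 kb from every annotated start, and at the starts of Tbx4 and Isl1. For each gene, the distal region shown is the one with the highest mean percentile among those held by all 4 lists, read in mm9 with 100 bases on each side of its strongest summit, 5′ to 3′ on the strand of the gene. They lie at chr5:120474139-120474339 for Tbx5, chr11:85689924-85690124 for Tbx4, chr13:56024974-56025174 on the minus strand for Pitx1, and chr13:116991837-116992037 on the minus strand for Isl1. All 4 are intergenic. Capitals mark matches to the searched motifs, here TAATCC, a core bound by Pitx-type homeodomains, in the Tbx4 region and CATTAG, the reverse complement of an Isl-type core, in the Pitx1 region.
Tbx5 distal region, 189567 bp downstream of the start: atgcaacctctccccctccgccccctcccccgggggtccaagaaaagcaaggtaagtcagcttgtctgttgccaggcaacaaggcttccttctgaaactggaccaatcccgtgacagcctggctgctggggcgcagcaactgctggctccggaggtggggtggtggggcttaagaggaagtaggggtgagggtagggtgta
Tbx4 distal region, 9900 bp upstream of the nearest start: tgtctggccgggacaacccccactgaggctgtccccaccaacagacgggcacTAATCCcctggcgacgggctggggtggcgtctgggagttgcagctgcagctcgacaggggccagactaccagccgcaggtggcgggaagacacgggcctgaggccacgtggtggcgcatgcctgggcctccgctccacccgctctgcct
Pitx1 distal region, 87521 bp upstream of the nearest start: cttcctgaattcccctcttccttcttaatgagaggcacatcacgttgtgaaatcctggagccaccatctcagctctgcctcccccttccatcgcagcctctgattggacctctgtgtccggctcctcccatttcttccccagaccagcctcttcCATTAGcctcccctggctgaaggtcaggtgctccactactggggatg
Isl1 distal region, 107959 bp downstream of the start: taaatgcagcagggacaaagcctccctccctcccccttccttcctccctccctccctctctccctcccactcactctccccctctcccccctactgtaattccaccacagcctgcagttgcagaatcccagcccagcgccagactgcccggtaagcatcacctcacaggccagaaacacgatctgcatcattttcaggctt

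RefSeq gave promoters for Tbx4 and Isl1, and their 250 bases before the start each matched mm9 once. The Tbx4 stretch lies at chr11:85710017-85710266, before the most downstream of its 3 annotated starts. The Isl1 stretch lies at chr13:117099897-117100146 on the minus strand and carries 1 TAATCC, in capitals. They are shown side by side because the start summits differ: the Isl1 stretch holds the strongest Isl1 start summit of every list, whereas the Tbx4 stretch holds a Tbx4 start summit in the stop cassette lists alone. This depends on where the stretch ends and is not a genotype difference at that start. Wild-type replicate 2 had a summit 36 bp past the same start, at the 43.0 percentile. The stop cassette summits inside the stretch stood lower, at 26.2 and 26.7. The Isl1 stretch has 71.2% GC and 33 CpG sites, against 58.4% and 6 in the Tbx4 stretch. The remaining sequence, at chr5:120295152-120295352, surrounds the strongest summit of the region nearest to the Tbx5 start, in intron 6 of Tbx5, and was chosen after its values had been seen.
Tbx4 promoter: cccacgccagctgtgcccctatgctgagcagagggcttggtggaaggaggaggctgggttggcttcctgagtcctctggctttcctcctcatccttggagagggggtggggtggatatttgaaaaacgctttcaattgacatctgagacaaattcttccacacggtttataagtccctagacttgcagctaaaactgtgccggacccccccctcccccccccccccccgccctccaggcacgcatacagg
Isl1 promoter: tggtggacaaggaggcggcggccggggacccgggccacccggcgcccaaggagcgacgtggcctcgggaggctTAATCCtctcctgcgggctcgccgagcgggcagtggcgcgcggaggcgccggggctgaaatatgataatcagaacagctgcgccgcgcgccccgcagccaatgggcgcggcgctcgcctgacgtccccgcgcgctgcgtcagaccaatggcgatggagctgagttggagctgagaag
Tbx5 intronic region: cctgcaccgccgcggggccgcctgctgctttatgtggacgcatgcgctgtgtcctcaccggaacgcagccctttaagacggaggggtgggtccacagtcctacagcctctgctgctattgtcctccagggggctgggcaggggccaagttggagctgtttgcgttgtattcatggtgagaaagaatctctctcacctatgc

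At their own starts the 4 genes differed widely. Isl1 had a strong summit in every list, Pitx1 a single weak to middling one in every list, Tbx4 weak to middling summits in 3 lists, and Tbx5 none in any. Among all protein-coding genes, 57.5% had a start summit in all 4 lists and 34.5% in none of them. By library, a start summit was present for 3 of the 4 genes in stop cassette replicate 1 (61.5% of all protein-coding genes), 3 in stop cassette replicate 2 (64.5%), 2 in wild-type replicate 1 (59.1%) and 3 in wild-type replicate 2 (61.6%).

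Tbx5 (ENSMUSG00000018263.8, mm9 chromosome 5, 120284672 to 120335227, plus strand) has 1 annotated start. The summit nearest to it lay 10476 bp away in stop cassette replicate 1, 10580 bp in stop cassette replicate 2, 163684 bp in wild-type replicate 1 and 10472 bp in wild-type replicate 2. In 3 lists that nearest summit lay in the intronic region whose sequence is given above, whose strongest summits stood at the 58.0, 75.3 and 45.4 percentile in stop cassette replicates 1 and 2 and wild-type replicate 2. Wild-type replicate 1, the shortest list, had no summit in the gene at all. Over the 4 lists together no summit lay between positions 120191388 and 120295144, an empty stretch of 103756 bp that holds the start, 93284 bp before it and 10472 bp after it. RefSeq, in its GRCm38.p6 table, lists Tbx5 as 88707 bp long against 50556 bp here. Starts that lie outside the shorter model were not placed or tested. Past the 3′ end of that model, no list had a summit closer than 87989 bp.

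Tbx4 (ENSMUSG00000000094.6, chromosome 11, 85699924 to 85729599, plus strand) has 3 annotated starts, at 85699924, 85703565 and 85710267. Its strongest start summit stood at the 26.2 percentile in stop cassette replicate 1, 63.4 in stop cassette replicate 2 and 43.0 in wild-type replicate 2, and wild-type replicate 1 had none within 1 kb. That list's nearest summit lay 9860 bp upstream. The most upstream start carried a summit in 3 lists, at the 18.5 percentile in stop cassette replicate 1, 63.4 in stop cassette replicate 2 and 27.2 in wild-type replicate 2. The most downstream start carried one in the same 3 lists, at 26.2, 41.6 and 43.0. The middle start had 1 summit only, at the 16.8 percentile in stop cassette replicate 1. No start therefore led in every list: the most upstream was strongest in stop cassette replicate 2 and the most downstream in stop cassette replicate 1 and wild-type replicate 2.

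Pitx1 (ENSMUSG00000021506.6, chromosome 13, 55926415 to 55937553, minus strand) has annotated starts at 55932786 and 55937553. Each list held 1 summit at the inner start, at the 43.6 percentile in stop cassette replicate 1, 9.20 in stop cassette replicate 2, 11.2 in wild-type replicate 1 and 48.2 in wild-type replicate 2. One list of each genotype was thus near the middle and the other near the bottom. The outer start, the 5′ end of the gene, had 0 summits in all 4 lists. The summits at the inner start lay from 261 bp upstream to 140 bp downstream of it.

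Isl1 (ENSMUSG00000042258.5, chromosome 13, 117088478 to 117099896, minus strand) has 1 annotated start, with 3 summits in each list. The strongest stood at the 83.9 percentile in stop cassette replicate 1, 86.0 in stop cassette replicate 2, 79.7 in wild-type replicate 1 and 80.1 in wild-type replicate 2. It lay 41, 122, 30 and 77 bp before the start, which is inside the promoter printed above, at bases 210, 129, 221 and 174. All but 1 of the other summits lay 339 to 556 bp upstream, and the exception lay 354 bp downstream, at the 0.993 percentile of stop cassette replicate 2. A strong start summit is common: the median over protein-coding genes that had one was 90.0, 92.6, 85.5 and 88.6 in the same order of libraries. Isl1 stood above 34.2%, 29.7%, 37.8% and 30.5% of those genes. Pitx1 stood above 8.43%, 0.881%, 1.75% and 8.83%, and Tbx4 above 4.46%, 10.8% and 7.28% in its 3 lists.

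**Figure D1:**
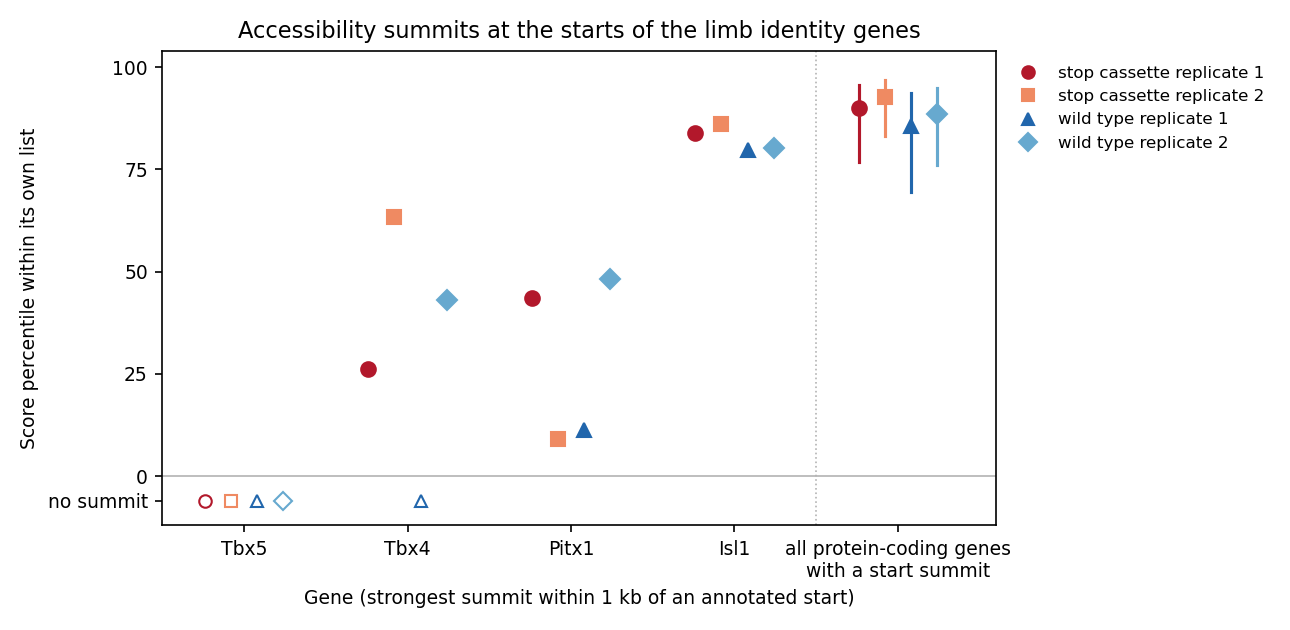
Score percentile, within its own list, of the strongest summit within 1 kb of an annotated start, for Tbx5, Tbx4, Pitx1 and Isl1 in each of the 4 libraries; open symbols on the lowest line mark no summit. On the right, symbols give the median and bars the quartiles over all protein-coding genes with a start summit. Isl1 lies between 79.7 and 86.0, Tbx4 and Pitx1 are spread between 9.20 and 63.4 where they have a summit, and Tbx5 has none.

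Over the 4 libraries, with a missing summit set to 0, the start percentile averaged 82.4 ± 3.02 for Isl1, 33.2 ± 26.8 for Tbx4 and 28.1 ± 20.7 for Pitx1 (SD, n = 4), and 0 for Tbx5. Isl1 was above the other genes in all 4 lists. Tbx4 and Pitx1 are neighbours in this order and their values overlapped, Pitx1 being the higher in 3 lists and Tbx4 in 1.

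Base composition around the starts followed part of this order. The ratio of observed to expected CpG within 1 kb of the start was 0.779 for Isl1, at the 88.1 percentile of protein-coding genes, and 0.671 for the inner Pitx1 start (73.9 percentile). Each start was ranked against the richest start of every gene, so a start that is not its gene's richest ranks low by this measure. It was 0.437, 0.453 and 0.153 for the Tbx4 starts in order along the gene (43.7, 45.3 and 12.8 percentile) and 0.231 for Tbx5 (23.9 percentile). Genes with a CpG-rich start and no summit at any start were rare. Of the 2671 genes whose richest start was at or above the Isl1 ratio, 96.0% had a start summit in all 4 lists and 0.636% in none. Of the 17027 genes at or above the Tbx5 ratio, counted likewise, 74.9% had a start summit in all 4 and 16.1% in none. That set includes every gene with a richer start, so it gives no share for genes near the Tbx5 ratio. Over all 22367 protein-coding genes 34.5% had none, so genes below the Tbx5 ratio lacked a start summit more often. These shares count a gene by any of its starts and give no rate for a single start. The outer Pitx1 start had a ratio of 0.579 (60.3 percentile) and held no summit. The part of base composition in the order of the 4 genes was not tested.

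The windows gave another order. The Tbx5 window had the fewest summits for its length in every list, and the windows of the 3 hindlimb genes each had more. The Tbx5 window held 7, 11, 4 and 10 summits in stop cassette replicates 1 and 2 and wild-type replicates 1 and 2, over 450556 bp. The Tbx4 window held 17, 43, 11 and 29 over 429676 bp, the widest range of the 4 genes. The Pitx1 window held 14, 23, 13 and 17 over 411139 bp, and the Isl1 window 12, 29, 15 and 17 over 411419 bp. All counts were highest in the longest list, stop cassette replicate 2.

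**Figure D2:**
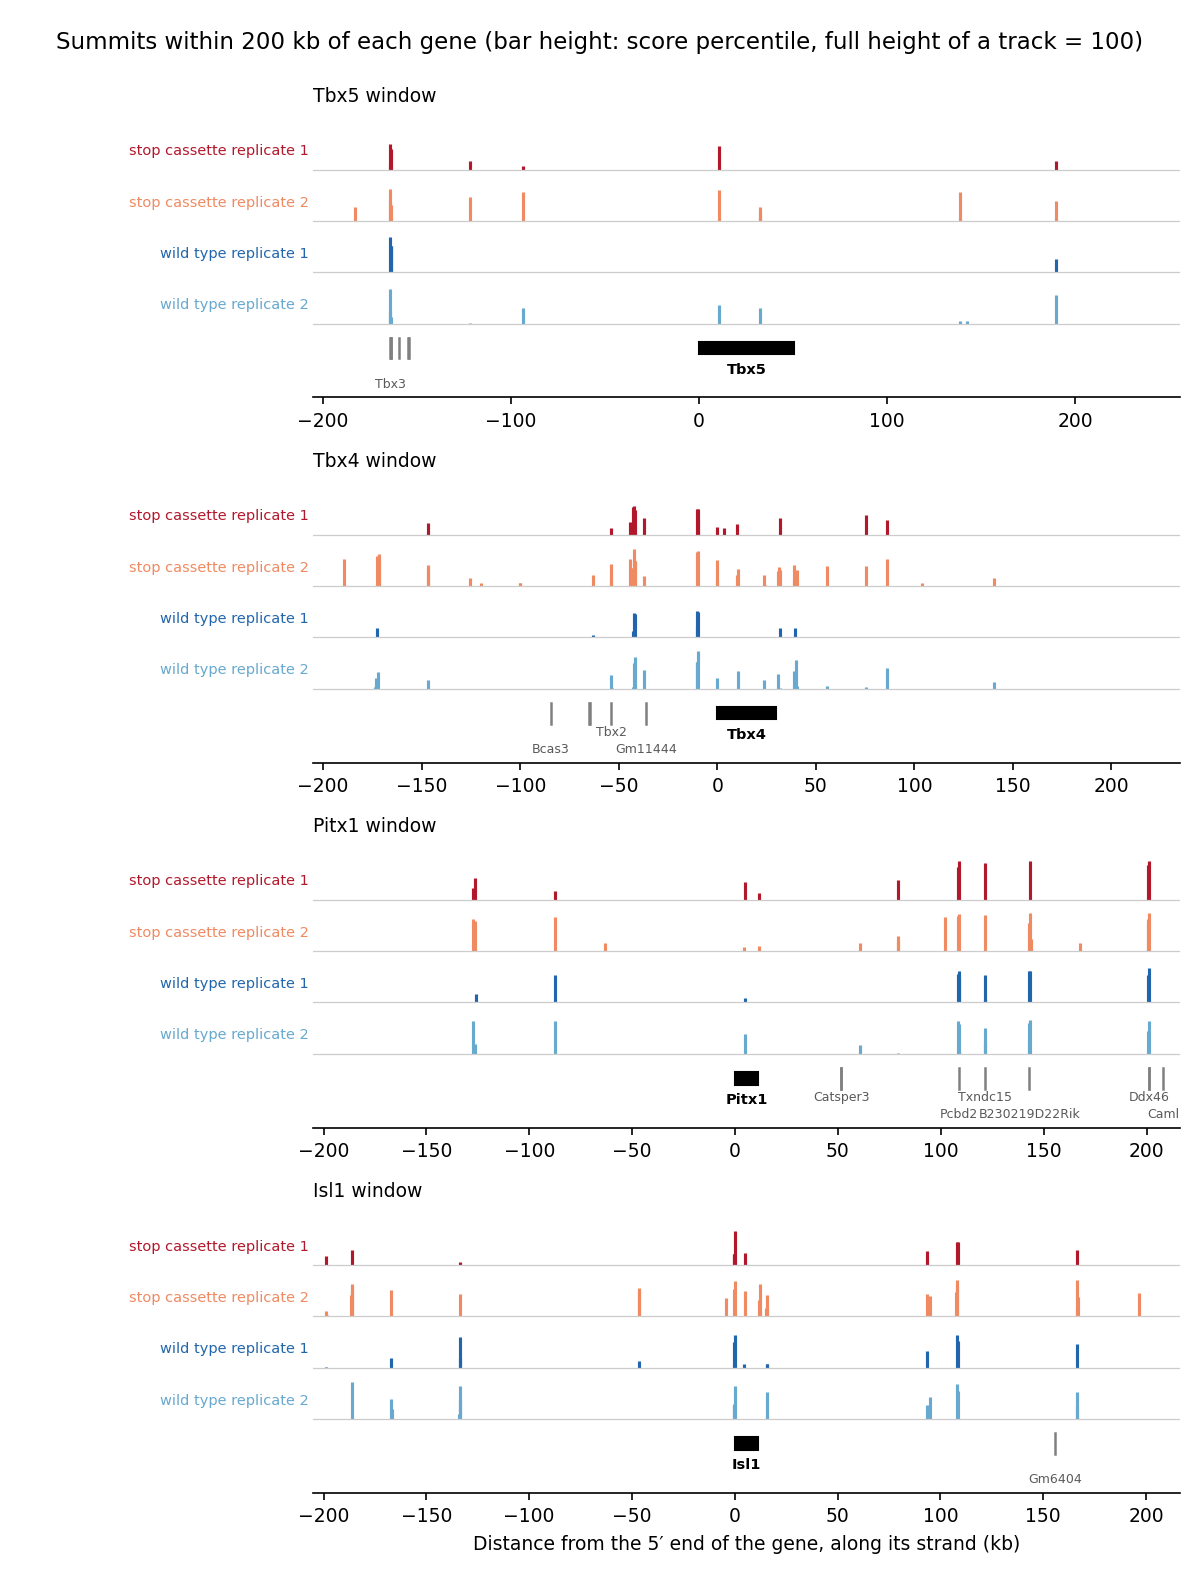
Summits in the windows of the 4 genes against distance in kb from the 5′ end of the gene along its strand, 1 track per library, with bar height as the score percentile. Black boxes are the genes and grey ticks the starts of other protein-coding genes. No bar stands at the Tbx5 start, while bars recur in all 4 tracks about 9.9 and 42 kb upstream of Tbx4, at the starts of neighbours of Pitx1, and at the Isl1 start.

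To set the lists on one scale, the density per 100 kb was divided by that of the whole genome in the same list. The ratio for Tbx5 was 0.522 and 0.601 in the stop cassette lists and 0.456 and 0.861 in the wild-type lists, below the genome's in all 4. For Tbx4 it was 1.33, 2.46, 1.32 and 2.62 in the same order, for Pitx1 1.14, 1.38, 1.62 and 1.60, and for Isl1 0.979, 1.74, 1.87 and 1.60. Averages over the 4 lists were 1.93 ± 0.707 for Tbx4, 1.55 ± 0.394 for Isl1, 1.44 ± 0.226 for Pitx1 and 0.610 ± 0.177 for Tbx5 (SD, n = 4). The values of the 3 hindlimb genes overlapped. Those of Tbx5 lay apart: its highest value, 0.861, lay below the lowest of any hindlimb gene, 0.979. These spreads pool both genotypes and lists of unlike length, and the genes were not tested against each other. Among the windows of all protein-coding genes, that of Tbx5 stood at the 17.8, 16.9, 14.8 and 23.7 percentile by density. Tbx4 was at 38.1, 76.1, 36.8 and 75.7, Pitx1 at 32.7, 41.6, 46.2 and 47.4, and Isl1 at 28.4, 55.2, 53.6 and 47.3, so none of the hindlimb windows stood at the top.

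The Tbx5 ratio minus the mean of the 3 hindlimb genes was −0.629 and −1.26 in the stop cassette lists and −1.15 and −1.08 in the wild-type lists, below 0 in all 4. Forelimb against hindlimb is here 1 gene against 3, and no test was made of it. Between genotypes this gap averaged −0.943 ± 0.445 and −1.11 ± 0.0477 (SD, n = 2 each), a difference of 0.17 (exact permutation p = 1). With summits near any start left out, Tbx5 remained below the mean of the hindlimb genes in all 4 lists and was the sparsest window in 3 of them. The exception was wild-type replicate 2, where the Pitx1 window then held 5 summits and the Tbx5 window 7.

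**Figure D3:**
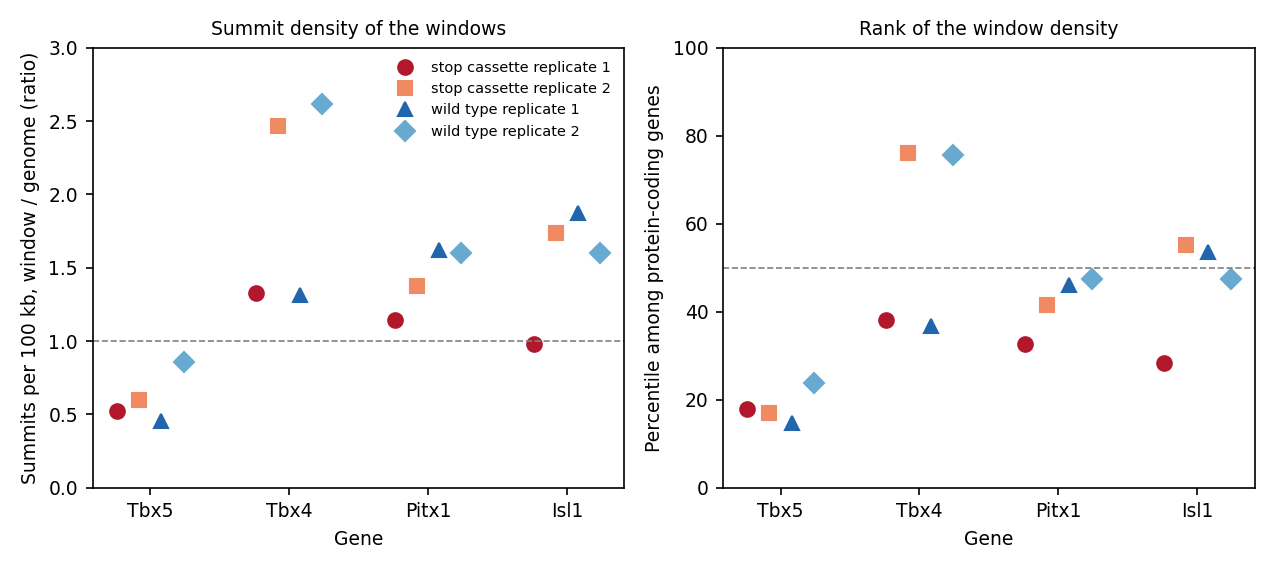
Left, summits per 100 kb in each window divided by the density of the whole genome in the same list, 1 symbol per library, with a dashed line at equal density. Right, the percentile of that density among the windows of all protein-coding genes. On the left all 4 Tbx5 values lie between 0.456 and 0.861, below every value of Tbx4, Pitx1 and Isl1, which run from 0.979 to 2.62.

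Where the summits lay also differed between the windows, in an order that depended on what was counted. Over the 4 lists together, 61 of 73 summits in the Isl1 window (83.6%) and 81 of 100 in the Tbx4 window (81.0%) were more than 1 kb from every annotated start. For Tbx5 it was 20 of 32 (62.5%) and for Pitx1 25 of 67 (37.3%). Summits of the 4 lists at 1 site are counted once per list, so these are not independent sites. Counted as merged regions, 8 of 9 were away from every start for Tbx5 and 21 of 27 for Tbx4. For Pitx1 it was 8 of 13 and for Isl1 15 of 16, against 56159 of 74669 over the series. By regions, Tbx5 thus no longer stood below Tbx4. The Isl1 window holds 1 other protein-coding gene, Gm6404, and no summit at its start in any list. The Pitx1 window holds 6 others, and 6, 11, 10 and 11 of its summits were at their starts. In the Tbx5 window, 3 summits in each list were at the start of Tbx3, a T-box gene of the limb margins, whose strongest stood at 62.9, 78.0, 84.8 and 83.1. Tbx2, the T-box neighbour of Tbx4, had start summits at 15.3, 53.3, 1.53 and 32.2. The Tbx5 and Tbx4 windows are thus alike in gene order, each with a T-box neighbour upstream. The start summit of that neighbour ranked higher for Tbx3 than for Tbx2 in every list.

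Of the 65 regions in the 4 windows, 19 were held by all 4 lists (29.2%, against 32.0% over the series), 17 by 3, 13 by 2 and 16 by 1. The share was near the background. By gene the counts were 2 of 9 regions for Tbx5, 5 of 27 for Tbx4, 7 of 13 for Pitx1 and 5 of 16 for Isl1. Of the 7 in the Pitx1 window, 4 were at the starts of Ddx46, B230219D22Rik, Txndc15 and Pcbd2. Among the 52 regions more than 1 kb from every start, 11 were held by all 4 lists (21.2%, against 19.0% over the series).

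In the Tbx5 window 1 of the 8 distal regions was held by all 4 lists (12.5%, against 19.0% over the series). This region, at chr5:120473989-120474631, had percentiles of 21.6, 47.8, 31.7 and 68.6. It is intergenic and lies 189567 bp downstream of the start. Inside the gene, beside the intron 6 region at chr5:120294894-120295502, which also overlaps a coding exon, a region in intron 7 at chr5:120316731-120317367 was held by stop cassette replicate 2 (34.7) and wild-type replicate 2 (36.9).

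Upstream of Tbx4 lay 2 strong distal regions held by every list. The region at chr11:85689348-85690481, 9900 bp upstream, stood at 63.5, 86.3, 63.2 and 91.3. That at chr11:85657527-85658614, 42133 bp upstream, stood at 70.1, 91.2, 59.6 and 76.9. Both are intergenic, and in every list both exceeded the strongest summit at any Tbx4 start. These regions were named for being held by every list and ranking highest by mean percentile among such distal regions. That wild-type replicate 1, which had no Tbx4 start summit, held both therefore follows from the choice. Choosing by rank also favours these regions in the comparison with the start summits, which was not tested. The Pitx1 and Isl1 regions below were chosen by the same rule.

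In the Pitx1 window the regions at chr13:56024790-56025337 and chr13:56063359-56065039 lay 87521 and 127217 bp upstream. The first stood at 21.6, 82.4, 66.6 and 78.7 and the second at 53.0, 78.6, 19.8 and 80.2. The first was thus lowest in stop cassette replicate 1 and the second in wild-type replicate 1, and the second exceeded the Pitx1 start summit in all 4 lists. The first did so in 3.

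For Isl1 the regions at chr13:116991303-116992324 and chr13:116932805-116933930 lay 107959 and 166491 bp downstream of the start. The nearer one stood at 56.9, 89.4, 80.3 and 84.0 and the farther at 36.8, 88.5, 58.1 and 65.5. In both the lowest value was that of stop cassette replicate 1. The nearer one was of similar rank to the Isl1 start summit, above it in 3 lists and below it in stop cassette replicate 1.

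**Figure D4:**
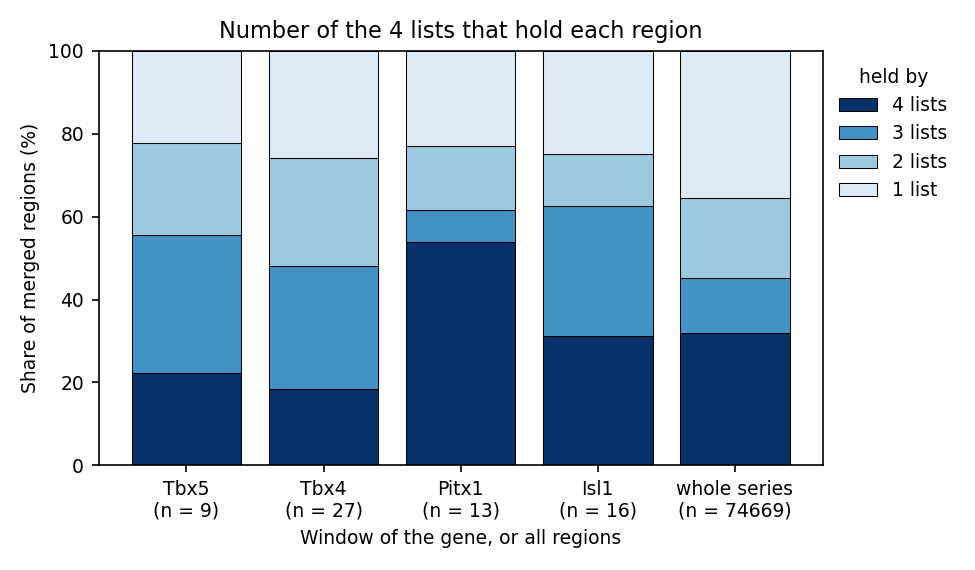
Percent of the merged regions of each window, and of the whole series, held by 4, 3, 2 or 1 of the lists, as stacked bars; the number of regions stands under each bar. The darkest part, regions in all 4 lists, stands for 2 of 9 regions at Tbx5, 5 of 27 at Tbx4, 7 of 13 at Pitx1, 5 of 16 at Isl1 and 32.0% of the series.

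Motif letters were searched on both strands in the strongest summit and 100 bases on each side of each distal region, 52 in the 4 windows and 56073 in the series. TAATCC was present in 7 of the 52 (13.5%, against 5.59% over the series) and CTAATG in 11 (21.2%, against 8.84%). TGATTNAT, a sequence bound by Hox and Pbx proteins together, was in 4 (7.69%, against 2.60%), and the T-box core AGGTGTGA in none (1.01% over the series). No printed sequence held more than 1 match. A match is a run of letters and not a measured site, and these shares have no test.

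Genotypes were compared per gene, over 2 libraries each, by an exact two-sided permutation test whose smallest possible p is 0.33. No comparison could therefore reach 0.05, and since nothing says that the libraries came from separate embryos, these p-values measure only the spread between libraries, which may be technical. Peak names give the wild-type lists alone a shared replicate number. The SDs of the 2 genotypes may therefore not measure the same kind of spread. Window summits were expressed per 10000 of their list because the stop cassette lists are longer. For Tbx5 these shares were 0.885 and 1.02 in the stop cassette lists against 0.774 and 1.46 in wild type, a difference of −0.164 (exact permutation p = 1). For Tbx4 they were 2.15 and 3.99 against 2.13 and 4.24, a difference of −0.113 (exact permutation p = 1), where the replicate 2 libraries were high in both genotypes. For Isl1 they were 1.52 and 2.69 against 2.90 and 2.48 (difference −0.589, exact permutation p = 0.667), and the difference was −0.00256 without stop cassette replicate 1 and −1.18 without stop cassette replicate 2. In these 3 genes the genotypes overlapped.

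Pitx1 was the exception, with 1.77 and 2.13 in the stop cassette lists and 2.51 and 2.48 in the wild-type lists. The means were 1.95 ± 0.257 and 2.50 ± 0.0224 (SD, n = 2 each), a difference of −0.547 (exact permutation p = 0.33, adjusted p = 1 over the 4 genes). Both stop cassette values were below both wild-type values in 1 of the 4 genes, and over all protein-coding genes in 17.8%. With summits near any start left out, the Pitx1 difference turned to 0.394, again without overlap (exact permutation p = 0.33). The genotypes overlapped at equal list length (1.74 and 2.32 against 2.51 and 2.32, exact permutation p = 0.667) and in windows of 100 kb (0.759 and 1.02 against 0.967 and 1.17, difference −0.178, exact permutation p = 0.667). The difference was −1.33 above a stricter score of 5.83 and −1.12 in windows of 500 kb.

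At the starts, Isl1 was higher in both stop cassette lists, 84.9 ± 1.46 against 79.9 ± 0.271 (SD, n = 2 each), by 5.02 percentile points (exact permutation p = 0.33, adjusted p = 0.889 over the 4 genes). A start percentile higher in both stop cassette lists was found in 41.2% of the 12860 genes with a start summit in every list, so this is a frequent pattern. When each list was reduced to the 51701 strongest summits, the length of the shortest, the Isl1 values were 75.4, 70.8, 79.7 and 73.7 and the difference was −3.62. Above the stricter score it was 15.4. Tbx4 (44.8 ± 26.3 against 21.5 ± 30.4, exact permutation p = 0.667) and Pitx1 (26.4 ± 24.3 against 29.7 ± 26.2, exact permutation p = 0.667) overlapped between genotypes.

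The median percentile of all summits in the window was compared as well, a measure added after the data had been seen. It was 39.3 and 41.8 for Tbx4 in the stop cassette lists and 23.4 and 25.5 in the wild-type lists, a difference of 16.1 (exact permutation p = 0.33, adjusted p = 0.889 over the 4 genes). Such a pattern held for 20.0% of the 20527 genes with window summits in every list, and for 1 of these 4. At equal list length the Tbx4 values were 31.0, 27.5, 23.4 and 27.7, a difference of 3.69 with overlap (exact permutation p = 0.667). The medians of Tbx5 (21.6, 47.8, 63.0 and 34.6), Pitx1 (51.1, 66.6, 65.9 and 55.8) and Isl1 (31.8, 55.5, 23.9 and 48.8) overlapped between genotypes.

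Regions held by both lists of one genotype and neither of the other were few. In the stop cassette direction there were 2 of 65, where the series has 10.0%. One was at chr11:85655393-85655899, intergenic and 44281 bp upstream of Tbx4, at the 32.1 and 66.4 percentile. The other was at chr13:55925441-55925949, intergenic and 7087 bp downstream of the inner Pitx1 start, past the 3′ end of the gene, at the 17.3 and 13.3 percentile. In the wild-type direction there were 0, where the series has 0.313%. Of the 65 regions, stop cassette replicates 1 and 2 held 35 and 61 (53.8% and 93.8%, against 61.1% and 85.6% over the series). Wild-type replicates 1 and 2 held 27 and 46 (41.5% and 70.8%, against 41.1% and 53.9%). The longest list, stop cassette replicate 2, alone held 12, and the other lists 1, 0 and 3 in the same order. Of the 74669 regions of the series, stop cassette replicate 2 alone held 16535, and the other lists 6138, 1132 and 2642. Of the 65 window regions, stop cassette replicate 1 held fewer than wild-type replicate 2 (35 against 46), although its list is longer. Over the series it held more (61.1% against 53.9%). The part of list length in the genotype-specific regions was not tested beyond the lists of equal length, where the counts were 0 and 3. As deposited, leaving out 1 library gave stop cassette-specific counts between 3 and 14, the highest without stop cassette replicate 1, and wild type-specific counts up to 4, without stop cassette replicate 2.

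Other genes of limb outgrowth and identity were taken from a list of 26. Of these, 22 and 24 had a start summit in the stop cassette lists and 20 in each wild-type list, with 18 present in all 4 lists and 1, Hoxc9, in none. Over all protein-coding genes the shares were 61.5%, 64.5%, 59.1% and 61.6% by list and 57.5% in all 4. Fgf10, the growth factor downstream of Tbx5 and Tbx4, stood at 66.5, 85.7, 75.1 and 73.2. Hand2, a factor of the posterior limb bud, stood at 70.6, 78.0, 51.4 and 85.7.

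Hox genes of the C cluster, of which some are used at forelimb and others at hindlimb levels, varied. Hoxc10 had a start summit in all 4 lists, at 64.2, 66.4, 37.5 and 42.9, whereas Hoxc11 had one in stop cassette replicate 1 only (30.6). Hoxc4 and Hoxc5 had them in 3 and 2 lists. Sall4, a zinc finger factor that acts with Tbx5, stood at 27.8, 81.6, 56.5 and 65.1. Fgf8 and Shh, signals made by small groups of limb bud cells, had a summit in stop cassette replicate 2 only, at 30.1 and 28.5. Aldh1a2, which makes retinoic acid, had none in wild-type replicate 1 and stood at 40.7, 51.9 and 1.96 in the other lists.

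Markers were looked at in the same way, beside the 59.1% to 64.5% of all protein-coding genes with a start summit in a list, and with an open start taken as no proof of expression. Limb mesenchyme genes had a start summit for 6, 6, 5 and 6 of 6, and limb ectoderm genes for 2, 4, 0 and 1 of 6, with Krt5 and Krt14 at none. Isl1 and Tbx5 are also active outside limbs, so cells from there were asked about. Of 4 heart genes only Gata4 had start summits, in 3 lists, and Myh6, Nkx2-5 and Tnnt2 had none. Of 5 genes of motor neurons and neural cells, Lhx3, Mnx1 and Olig2 had start summits in every list and Chat and Sox10 in none. Muscle precursor genes had 2, 4, 1 and 1 of 4, endothelial genes 1, 2, 1 and 1 of 4, blood genes 2, 2, 2 and 1 of 3, liver genes 0 of 3 in each, and genes of the pituitary and first arch 0, 1, 1 and 1 of 3. Their part in the Isl1 and Pitx1 summits was not tested.

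The genes most like each member were sought over 8 values, the start percentile and the density percentile of the window in each list, among protein-coding genes more than 1 Mb away. For Isl1 they were Rgnef, Mex3b and Klhdc5, at Euclidean distances of 14.9, 16.4 and 16.7 percentile points. For Tbx4 they were Hoxa10, Prdm16 and 5330437I02Rik (20.1, 21.9 and 25.5), and for Pitx1 Apol8, Scara3 and Acnat1 (22.8, 26.9 and 29.0). For Tbx5 they were the trace amine receptor genes Taar7f, Taar7d and Taar7e (1.87, 1.87 and 2.58), which like it have no start summit and a sparse window. These 3 lie close together on chromosome 10, between 23747028 and 23770392. Their windows largely overlap, so they are 1 locus and not separate likenesses. Genes without a start summit share 4 zeros, which brings them closer to each other than the rest.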

How the data were processed

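ATAC-seq was measured in 4 libraries of pooled limb cells, 2 per genotype. The authors deposited 1 list of summits per library, called per library; reads were aligned with Bowtie2 2.2.6 and handled with Picard on mm9, per the submitters' processing notes. Peak names record removal of duplicate and mitochondrial reads and a mapping quality of 30. The deposited score is a −log10 value whose lowest, 1.30, is that of 0.05; whether it is of a p-value or a q-value, and the peak caller, are not given in the sources used here. Scores depend on depth, which is unknown, so they were ranked within a list, and tied scores share a percentile.

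Here summits were joined to GENCODE M1 starts (NCBIM37, the same build), and group means were compared by exact permutation tests, Benjamini-Hochberg adjusted over the 4 genes (Python 3.11.15, scipy 1.17.1). Named regions were those at the genes' starts, the 2 highest distal regions held by all 4 lists and all genotype-specific ones. Members, gene lists, markers and tests were chosen with earlier results of these data known. Alternatives were equal list length, a stricter score, other windows, start distances and extensions, joined summits and left-out libraries. The values of 1 listed gene are not reported here. The merging of summits was also tested with simulated data. Peak names in the wild-type lists carry 1 shared replicate number with a sub-number, unlike those of the stop cassette lists.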

Additional observations from a re-analysis of the deposited data

How the results depend on the processing

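Of the values recomputed for the planned tests, 64 of 77 kept their direction, 12 turned, and the Pitx1 start difference fell to 0 above the stricter score, where no list had a summit there. The Tbx5 start, at 0 throughout, and the replicate block, whose differences equal those as reported, are not counted. Start distances of 500 bp and 2 kb are counted as kept, although their differences also equal those as reported. Joined summits are counted too, although that setting was not planned. No p could pass 0.05 at this size. At equal list length the start percentile difference became −0.381 for Tbx4 and −3.62 for Isl1. A score above 5.83 gave a window share difference of 0.356 for Tbx4. With summits near any start left out it was 0.016 for Tbx5 and 0.394 for Pitx1, and with summits closer than 250 bp joined 0.0536 for Tbx5. Leaving out 1 library moved that difference from −0.508 to 0.179 for Tbx5 and from −1.17 to 0.941 for Tbx4, the Pitx1 start difference from −21.8 to 15.2, and the genotype difference in the Tbx5 gap from −0.144 to 0.485. These turned, respectively, without wild-type replicate 2, without stop cassette replicate 1 or wild-type replicate 2, without stop cassette replicate 2 or wild-type replicate 2, and without stop cassette replicate 1. The median percentile difference turned in 12 of 39 recomputations: for Pitx1 to 4.49 at equal length and 27.3 above the stricter score, for Isl1 to −19.4 above it and −8.32 with joined summits, and for Tbx5 to 0.251 above it, 11.8 in windows of 500 kb and 2.82 without summits near starts. Leaving out 1 library gave −28.4 to 0.0556 for Tbx5, −9.83 to 5.71 for Pitx1 and −5.14 to 19.7 for Isl1. Causes were not tested.

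Of 30 recomputed region counts, 15 moved by more than 1.5 times. Stop cassette-specific regions numbered 0 at equal length, 12 in windows of 500 kb and 5 with an extension of 100 bp, and 3 to 14 without 1 library (14 when stop cassette replicate 1 was left out, 13 and 4 when wild-type replicates 2 and 1 were). Wild type-specific regions numbered 3 at equal length, 1 with 100 bp, and 0 to 4 without 1 library (4 when stop cassette replicate 2 and 3 when wild-type replicate 1 was left out). Regions in all 4 lists numbered 11 at equal length, 10 above the stricter score, 11 and 50 in windows of 100 and 500 kb. With 1 library left out, regions in all 3 remaining lists numbered 19 to 30, the highest without wild-type replicate 1; fewer lists make this easier to meet. Tbx5 stayed below the mean of the hindlimb genes in all 4 lists under each alternative that kept all libraries.

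The replicate numbers did not pair libraries by any label. Same-numbered libraries' deviations correlated at 0.198 over 12860 genes, and as a replicate block the differences were the same, −0.547 for the Pitx1 share and 5.02 for the Isl1 start, with an exact sign-flip p of 0.5 each, the smallest 2 pairs allow. A single best summit per called peak was not run, since peak names do not show which summits share a peak; the Tbx5 median in windows of 100 kb had no value, because wild-type replicate 1 has no summit there.

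Lists without counts give presence and rank only, so a missing summit is one not called at an unknown depth and does not show a closed site.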
